A study of Mus musculus with 24 samples.

Results

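The genes that dock, prime, fuse and retrieve synaptic vesicles were described in the ventral tegmental area (VTA), the midbrain region from which dopaminergic neurons project to the reward system. The list held 32 genes, chosen by name for their place in the vesicle cycle, although earlier results of these data were known. Of these genes, 31 had a probe set of their own among the 23410 transcripts of the array, of 35556 probe sets in all. *Vamp2* was the exception, since its probe set lists several genes, and it was not analysed here. Where a gene had more than 1 probe set, that with the highest mean was used, which concerned only *Unc13a*.

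Tissue came from male wild-type C57BL/6N mice of 10 to 12 weeks, kept in 12 h of light and 12 h of dark with standard chow and water always available. A punch of 0.5 mm diameter was taken from brain slices 0.5 mm thick, and total RNA from each mouse was hybridised to 1 array. Mice were sampled at Zeitgeber time (ZT, hours after lights on) 0, 4, 8, 12, 16 and 20, with 4 mice at each time point and 24 in all. No genotype or treatment differed between the groups, so time of day is the comparison that the design allows. It asks whether the transcripts of the release machinery differ between the rest phase of the mice, in the light, and their active phase, in the dark. A punch holds dopaminergic, GABAergic and glutamatergic neurons, glia and vessels together, and in such samples fewer cells of a type and less RNA per cell cannot be told apart. *Th* and *Slc6a3*, defining markers of dopaminergic neurons, were measured in every mouse, with log2 expression of 7.43 to 8.21 and of 8.01 to 9.18.

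Neurotransmitter is released when a vesicle fuses with the presynaptic membrane. The vesicle SNARE proteins synaptobrevin (Vamp1 and Vamp2) zip together with syntaxin and SNAP25 of the cell membrane, complexin holds the assembled complex, and calcium binding to synaptotagmin triggers fusion. The ATPase NSF and its SNAP adaptors then take the spent complexes apart, and dynamin, amphiphysin and synaptojanin retrieve and uncoat the membrane. These proteins are made in the cell body and carried along the axon, so mRNA in a VTA punch comes from local cell bodies, including those of neurons that release transmitter elsewhere.

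Promoter windows of 300 bases, from 250 bases before to 50 bases after the start of a gene, were taken from RefSeq (build GRCm38.p6) and found for 26 of the 31 genes. The windows were searched on both strands for the E-box CACGTG, which the clock proteins CLOCK and BMAL1 are known to bind, for the D-box TTATGTAA and for the cAMP response element TGACGTCA. These genes have 34 windows. The E-box was found in 3 of the 34 (8.82%), 1 each of *Napa*, *Nsf* and *Sv2b*, against 7.15% of all 32851 windows. The cAMP response element was found in 2 of 34 (5.88%), 1 each of *Napa* and *Syn1*, against 1.79% of all windows, and the D-box in 0 of 34, against 0.938% of all windows. The windows of *Napa* and *Nsf*, which encode partners in the same step, and of *Sv2a*, the other member with a low p-value in the light-dark comparisons below, are shown 5′ to 3′ with matches in capitals. They lie at chr7:16098330-16098629 on the plus strand (*Napa*), chr11:103954007-103954306 on the minus strand (*Nsf*) and chr3:96180977-96181276 on the plus strand (*Sv2a*).
Napa: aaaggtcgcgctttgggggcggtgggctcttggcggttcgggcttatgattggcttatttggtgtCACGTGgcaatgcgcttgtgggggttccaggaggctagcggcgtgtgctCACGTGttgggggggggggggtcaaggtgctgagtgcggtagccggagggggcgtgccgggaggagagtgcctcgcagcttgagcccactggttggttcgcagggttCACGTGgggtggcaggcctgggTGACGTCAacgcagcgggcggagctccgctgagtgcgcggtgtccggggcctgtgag
Nsf: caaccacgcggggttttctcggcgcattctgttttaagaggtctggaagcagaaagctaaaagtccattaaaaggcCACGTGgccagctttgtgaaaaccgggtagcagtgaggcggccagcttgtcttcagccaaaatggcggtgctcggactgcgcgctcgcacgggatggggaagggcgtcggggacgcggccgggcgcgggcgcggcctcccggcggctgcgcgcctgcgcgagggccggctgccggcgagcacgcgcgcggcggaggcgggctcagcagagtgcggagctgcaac
Sv2a: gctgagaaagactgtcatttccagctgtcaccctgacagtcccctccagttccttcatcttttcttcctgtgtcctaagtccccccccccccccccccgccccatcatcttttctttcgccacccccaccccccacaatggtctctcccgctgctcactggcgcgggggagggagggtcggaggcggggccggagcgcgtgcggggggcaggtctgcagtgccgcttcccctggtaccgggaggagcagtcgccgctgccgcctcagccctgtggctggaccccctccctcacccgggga
The *Napa* window holds 3 matches to the E-box, which begin 185, 136 and 29 bases before the start of the gene, and 1 match to the cAMP response element, which begins 7 bases before it. In the *Nsf* window a single E-box match begins 174 bases before the start. The *Sv2a* window holds none of these letters. A match describes the sequence only, and binding was not measured in these mice.

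All values below are log2 expression after RMA (robust multi-array average), in which 1 unit is a 2-fold difference, and levels were not compared between genes because probes differ in brightness. Rhythms were tested by fitting a 24-h cosine curve to each transcript in limma, and p-values were Benjamini-Hochberg adjusted over all 23410 transcripts. None of the 31 members was rhythmic at an adjusted p under 0.05 in limma, where 0.0299% of all transcripts were, and 0 passed an unadjusted p under 0.05, where 8.91% of all transcripts did. The lowest rhythm p of a member was 0.0627 (*Napa*), with an adjusted p of 0.582 in limma. A test for any difference between the 6 time points gave the same counts, 0 members at an adjusted p (0.00427% of all transcripts) and 0 at an unadjusted p under 0.05 (5.1% of all transcripts).

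The fitted curves were shallow. Peak-to-trough folds of the members reached at most 1.14, with a median of 1.06 against 1.07 for all transcripts. From the joint 95% confidence region of each curve, the largest fold that the data leave room for was 1.11 to 1.34, with a median of 1.19 against 1.23 for all transcripts. In 18 of 31 members this upper limit was below 1.2-fold, as it was in 30.5% of all transcripts, and in 30 of 31 below 1.3-fold, as in 77.6%. *Rims2* (1.34) was the exception, followed by *Napa* (1.26). The members' values were also close together between mice of 1 time point. Their SD had a median of 0.116 against 0.133 for all transcripts and 0.124 for transcripts above the median level. It was lowest in *Snap25*, at 0.056, and highest in *Rims2*, at 0.167.

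**Figure D1:**
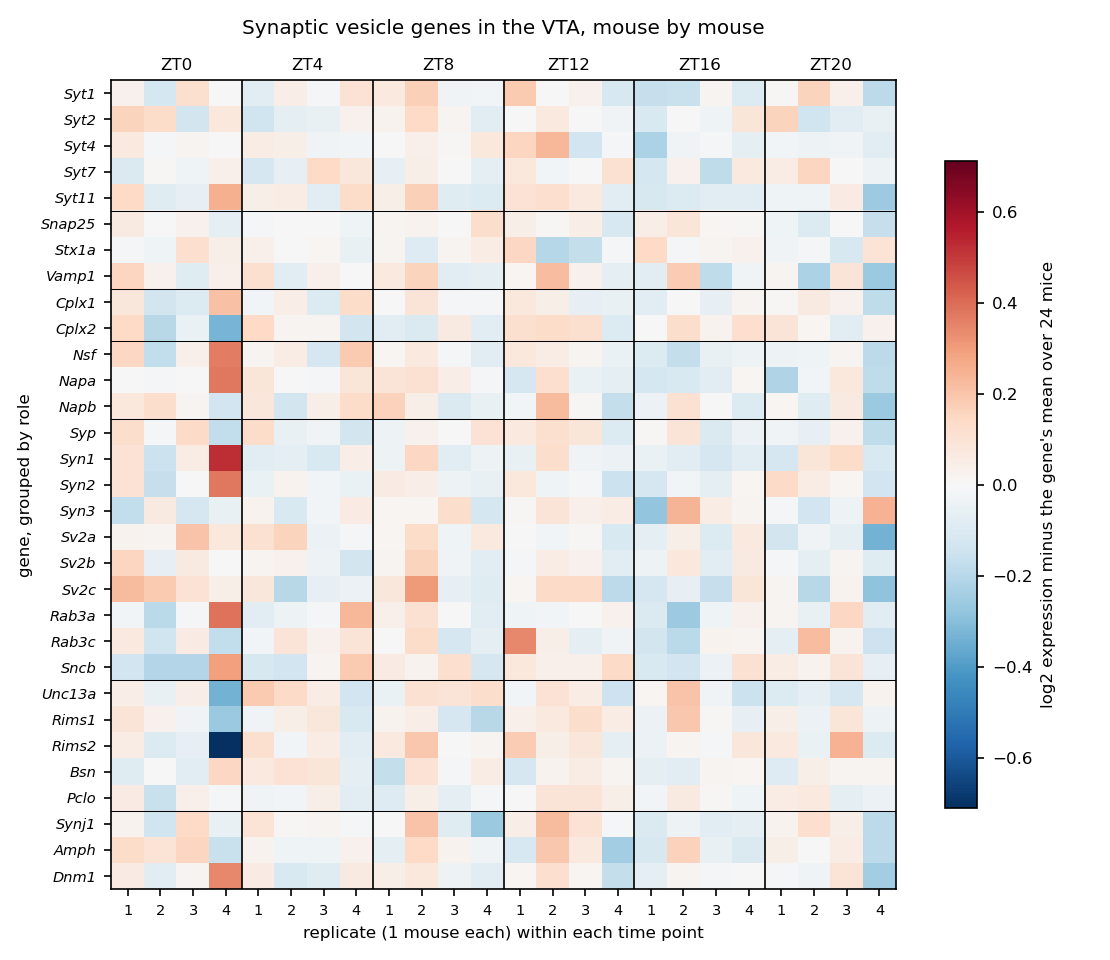
Log2 expression of the 31 measured vesicle genes (rows, grouped by role) in each of 24 mice (columns, 4 per time point), shown as the difference from the mean of the gene over all mice. Most cells are pale, and the strongest colours lie in the column of ZT0 replicate 4, where *Rims2* is lowest and *Syn1* highest, and in that of ZT20 replicate 4, which is mostly blue.

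Light and dark were compared in limma over 2 windows of 8 mice each. Early light (ZT0 and ZT4) was set against early dark (ZT12 and ZT16), and late light (ZT4 and ZT8) against late dark (ZT16 and ZT20). The windows share the ZT4 and ZT16 mice. In the early comparison 0 members passed an adjusted p under 0.05 in limma (0.0342% of all transcripts) and 0 an unadjusted p under 0.05 (10.2% of all transcripts). In the late comparison 2 members, *Sv2a* and *Napa*, passed an unadjusted p under 0.05, 6.45% of the members where 7.69% of all transcripts did. Both were higher in light, as were 3.66% of all transcripts at that threshold. Neither passed after adjustment in limma, where 0% of all transcripts did. For all members the 95% intervals of the difference lay between -0.29 and 0.24 in the early and between -0.18 and 0.25 in the late comparison.

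Without a threshold, the mean was higher in the late light than in the late dark in 25 of 31 members, where 49.8% of all transcripts were higher, with a median difference of 0.03 against 0.00. In the early comparison it was higher in light in 19 of 31, where 47.5% of all transcripts were higher, with a median of 0.02 against -0.01. With 1 mouse left out at a time, 19 to 27 members were higher in the late light, with medians of 0.02 (without ZT20 replicate 4) to 0.05, and 16 to 23 in the early light, with medians of 0.0045 (without ZT16 replicate 1) to 0.04. The late direction of 11 members and the early direction of 12 turned when some single mouse was left out. With array medians centred, 26 members were higher in the late light, with a median of 0.04, and 22 in the early light, with a median of 0.03. The counts of 25 and 19 both turned under a further quantile normalization of the transcripts, with 13 members higher in the late light and a median of -0.01, and 12 members higher in the early light and a median of -0.02. General neuronal markers were also higher in the late light in 9 of 10 genes, with a median difference of 0.09, and in 5 of 10 with a median of -0.01 under that normalization. Markers of dopaminergic neurons were higher in 4 of 9 genes, with a median difference of -0.01, and markers of astrocytes in 4 of 8, with a median of 0.00. The remaining marker lists were higher in the late light in 3 of 3 GABAergic, 2 of 2 glutamatergic, 3 of 6 fast-firing, 6 of 9 oligodendrocyte, 4 of 8 microglial and 4 of 7 endothelial genes, and in 2, 0, 1, 4, 4 and 3 of them under the further quantile normalization. The log2 summed level of the general neuronal markers ranged from 13.36 to 13.50 in the late light and from 13.22 to 13.41 in the late dark. Their part in the members' differences was not tested.

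**Figure D2:**
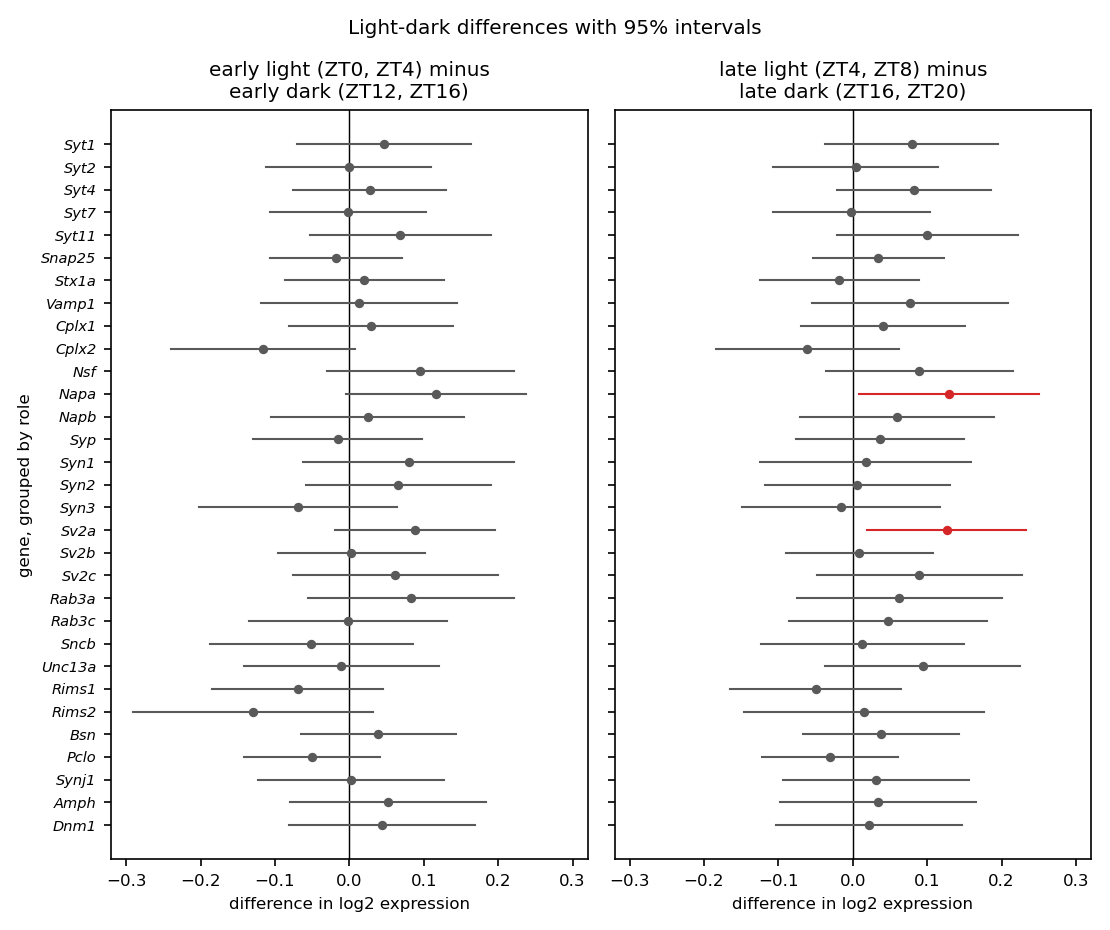
Difference in log2 expression between light and dark for the 31 members, in the early (left) and late (right) windows, with 8 mice in each window. Points are limma estimates, bars are 95% intervals and red marks an unadjusted p under 0.05, which *Napa* and *Sv2a* reach in the late windows.

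By the means of the 4 mice, 13 members were lowest at ZT16 (19.2% of all transcripts) and 9 at ZT20 (17.8%), while 12 were highest at ZT0 (18.5%) and 9 at ZT12 (18.7%). The count at ZT0 depended on ZT0 replicate 4. Without it *Napa*, *Nsf*, *Syn1*, *Syn2*, *Rab3a* and *Syt11* were no longer highest at ZT0, while *Syp* and *Napb* became so. The share of all transcripts without that mouse was not counted. Differences between the highest and the lowest time point ran from 0.05 in *Cplx1* to 0.27 in *Rims2*. The mice of the highest and lowest time points are described below where a member's values carry the comparison.

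The disassembly machinery included the member with the lowest rhythm p. *Napa* (probe set 10550237) encodes alpha-SNAP, the adaptor through which NSF grips the SNARE complex. Its log2 expression at ZT0 was 7.71, 7.70, 7.71 and 8.09 in the 4 mice, at ZT4 7.80, 7.71, 7.70 and 7.80, and at ZT8 7.80, 7.82, 7.76 and 7.70. At ZT12 it was 7.59, 7.83, 7.67 and 7.65, at ZT16 7.59, 7.60, 7.63 and 7.72, and at ZT20 7.50, 7.69, 7.79 and 7.53. The ZT16 mice lay low and close together, the ZT20 mice were spread over most of the range of the dark phase, and 1 mouse at ZT0 was higher than all others. In the late light the 8 mice had 7.70 to 7.82 with a median of 7.78, and in the late dark 7.50 to 7.79 with a median of 7.62. The 2 windows overlapped, although 6 of the 8 late dark mice were below every late light mouse. The difference was 0.13 ± 0.06 (SE), with a 95% interval of 0.01 to 0.25, an unadjusted p of 0.0376 and an adjusted p of 0.617 in limma. In the early comparison it was 0.12 ± 0.06 (SE), with a p of 0.0593 and an adjusted p of 0.514 in limma, just outside the unadjusted threshold. The fitted curve peaked at ZT4.3 with a fold of 1.12. Without ZT0 replicate 4, the rhythm p of *Napa* was 0.0348 and its adjusted p in limma 0.516, and the early difference was 0.07, with an unadjusted p of 0.195. The rhythm p was under 0.05 in 5 of 24 fits without 1 mouse, and it reached 0.104. The others were those without ZT4 replicate 3, ZT12 replicate 2, ZT16 replicate 4 or ZT20 replicate 3. Without both ZT0 replicate 4 and ZT20 replicate 4 it was 0.0692 in limma. The late p of *Napa* rose above 0.05, to between 0.0517 and 0.0869 in limma, when any 1 of 9 mice was left out, namely ZT4 replicates 1 and 4, ZT8 replicates 1 and 2, ZT16 replicates 1, 2 and 3, and ZT20 replicates 1 and 4.

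*Nsf* (probe set 10391963), the ATPase itself, also had its highest mouse at ZT0. The 4 mice had 9.75, 9.42, 9.64 and 9.96 at ZT0, 9.62, 9.65, 9.48 and 9.78 at ZT4 and 9.61, 9.67, 9.59 and 9.52 at ZT8. At ZT12 they had 9.68, 9.66, 9.62 and 9.55, at ZT16 9.50, 9.43, 9.55 and 9.56 and at ZT20 9.57, 9.57, 9.62 and 9.42. The ZT0 mice alone covered nearly the whole range of the 24, and the ZT16 mice were low. The difference between light and dark was 0.10 ± 0.06 (SE) in the early and 0.09 ± 0.06 (SE) in the late comparison, with unadjusted p of 0.131 and 0.156 and adjusted p of 0.617 and 0.766 in limma. Without ZT0 replicate 4 the early difference was 0.05, and without ZT0 replicate 2 it was 0.14, with an unadjusted p of 0.0195 and an adjusted p in limma of 0.273. *Napb*, the brain-enriched beta-SNAP, ranged from 8.55 to 9.03 over the 24 mice, with an early difference of 0.02 ± 0.06 and a late difference of 0.06 ± 0.06 (SE), the latter 0.03 without ZT20 replicate 4. All 3 genes of this role had higher means in light in both comparisons, and 0 of 3 passed adjustment in limma. Under the further quantile normalization 2 of 3 were higher in the early light and 3 of 3 in the late light. The late differences were then 0.003 (*Nsf*), 0.001 (*Napb*) and 0.12 (*Napa*), and the early one of *Nsf* was 0.016.

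Among the proteins of the vesicle membrane and surface, *Sv2a* had the lowest late p of any member. *Sv2a* (probe set 10494372) encodes a vesicle glycoprotein that is the binding site of the antiepileptic drug levetiracetam. At ZT0 the 4 mice had 9.26, 9.26, 9.44 and 9.31, at ZT4 9.35, 9.40, 9.20 and 9.23, and at ZT8 9.25, 9.37, 9.21 and 9.30. At ZT12 they had 9.24, 9.22, 9.24 and 9.13, at ZT16 9.17, 9.28, 9.14 and 9.30, and at ZT20 9.10, 9.21, 9.17 and 8.90. The highest mouse was at ZT0 and the lowest, ZT20 replicate 4, at ZT20, with the other 3 ZT20 mice within the range of ZT12 and ZT16 or just below it. In the late light the values were 9.20 to 9.40 with a median of 9.28, and in the late dark 8.90 to 9.30 with a median of 9.17. The windows overlapped, and 5 of the 8 late dark mice were below every late light mouse. The late difference was 0.13 ± 0.05 (SE), with a 95% interval of 0.02 to 0.23, an unadjusted p of 0.023 and an adjusted p of 0.581 in limma. The early difference was 0.09 ± 0.05 (SE), with an unadjusted p of 0.102. Without ZT20 replicate 4 the late difference was 0.09, with an unadjusted p of 0.0713 in limma, and its p was also above 0.05 without ZT4 replicate 2 (0.0549) and without ZT16 replicate 3 (0.0502).

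The other SV2 genes did not pass an unadjusted p under 0.05 in the late comparison, and the difference between the 3 genes was not tested. *Sv2b* ranged from 8.65 to 8.93 over the 24 mice and had a late difference of 0.01 ± 0.05 (SE), with an upper limit on its rhythm of 1.11-fold, the lowest of all members. *Sv2c*, which is prominent in the basal ganglia, ranged from 8.27 to 8.86 and had a late difference of 0.09 ± 0.07 (SE), with a p of 0.192. The synapsins, which tether vesicles in the reserve pool, had early differences of 0.08 ± 0.07 (*Syn1*), 0.07 ± 0.06 (*Syn2*) and -0.07 ± 0.06 (*Syn3*, SE). Without ZT0 replicate 4 those of *Syn1* and *Syn2* were 0.01 and 0.02. Their late differences lay between -0.02 and 0.02. *Syp*, the abundant vesicle protein synaptophysin, ranged from 8.71 to 9.02, and *Rab3a* and *Rab3c*, small GTPases that bring vesicles to the active zone, from 8.28 to 8.93 and from 8.84 to 9.37. *Sncb*, beta-synuclein, ranged from 8.68 to 9.18 and had an early difference of -0.05 ± 0.07 (SE), which was -0.11 without ZT0 replicate 4, with an unadjusted p of 0.0554 in limma. Of the 10 genes of this role, 9 had a higher mean in the late light and 6 in the early light, and 3 and 5 did under the further quantile normalization. With 1 mouse left out at a time these counts were 6 to 10 and 5 to 8.

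None of the 5 synaptotagmins among the members passed an unadjusted p under 0.05 in any of the 4 tests. Of those among the other vesicle genes, *Syt16* did in the late comparison (0.0243 in limma) and *Syt17* in the early one (0.0457). *Syt1* and *Syt2* are the fast calcium sensors of synchronous release, *Syt7* is a slower sensor with high calcium affinity, and *Syt4* and *Syt11* are relatives that bind calcium poorly. *Syt1* ranged from 10.24 to 10.61 over the 24 mice, with a late difference of 0.08 ± 0.06 (SE) and a p of 0.176. *Syt4* had 0.08 ± 0.05 (SE), with a p of 0.115 and an adjusted p in limma of 0.726. All 8 late light mice of *Syt4* were above the median of the late dark and 6 of them above every late dark mouse. The share of all transcripts that separate as much was not counted. Its late difference was 0.02 under the further quantile normalization. *Syt11* had 0.10 ± 0.06 (SE), the largest of this role, with a p of 0.103 and an adjusted p in limma of 0.716. Under that normalization the late difference of *Syt11* was 0.008 and that of *Syt1* -0.029. The median of the 5 genes was then 0.001, against 0.08 without it. The fitted curves of *Syt2* and *Syt7* had the lowest peak-to-trough folds of all members, with upper limits on the fold of 1.12 and 1.11.

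The SNARE proteins included the member with the least spread. *Snap25* had 12.36, 12.30, 12.32 and 12.22 at ZT0 and 12.28, 12.30, 12.30 and 12.26 at ZT4. The ZT8 mice had 12.31, 12.32, 12.29 and 12.42, and the ZT12 mice 12.33, 12.30, 12.34 and 12.18. In the later dark it had 12.34, 12.38, 12.31 and 12.30 at ZT16 and 12.26, 12.19, 12.29 and 12.13 at ZT20. All mice lay in the range of 12.13 to 12.42. The ZT16 mice lay above those of ZT4 and ZT20 and the ZT8 mice above those of ZT20, and all other pairs of time points overlapped. How often other transcripts separate in this way was not counted. For *Snap25* the test for any difference between time points gave an unadjusted p of 0.447 in limma, and the rhythm p was 0.476. The late difference was 0.03 ± 0.04 (SE), and the upper limit on the rhythm was 1.14-fold. *Stx1a*, the syntaxin of the cell membrane, ranged from 6.68 to 7.03 and had a late difference of -0.02 ± 0.05 (SE). *Vamp1*, the synaptobrevin that is prominent in the brainstem and spinal cord, ranged from 8.90 to 9.38 and had a late difference of 0.08 ± 0.06 (SE).

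Complexins clamp and then release the assembled SNARE complex. *Cplx2* (probe set 10405253) had 8.10, 7.76, 7.91 and 7.62 at ZT0, 8.09, 7.97, 7.97 and 7.82 at ZT4 and 7.88, 7.85, 8.02 and 7.87 at ZT8. At ZT12 it had 8.07, 8.08, 8.07 and 7.86, at ZT16 7.96, 8.08, 7.98 and 8.08 and at ZT20 8.05, 7.97, 7.87 and 7.99. At ZT0 both the highest and the lowest of the 24 mice occurred, while 7 of the 8 early dark mice lay between 7.96 and 8.08. The early difference was -0.12 ± 0.06 (SE), lower in light, with a p of 0.0649 and an adjusted p of 0.52 in limma. Without ZT0 replicate 4 it was -0.08, and without ZT0 replicate 1 it was -0.16, with an unadjusted p of 0.00956 and an adjusted p in limma of 0.335. *Cplx1* ranged from 9.81 to 10.19 and had an early difference of 0.03 ± 0.05 and a late difference of 0.04 ± 0.05 (SE). Without ZT0 replicate 4 the early one was -0.0028, and without ZT20 replicate 4 the late one was 0.01. Whether the 2 genes differ from each other was not tested.

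The active zone genes had a median early difference of -0.05, with 1 of 5 means higher in light, as under the further quantile normalization, where the median was -0.07. Without ZT0 replicate 4 the median was -0.03, with 2 of 5 means higher in light. *Rims2* (probe set 10423855), a scaffold that links vesicles, calcium channels and Munc13, had 8.55, 8.40, 8.44 and 7.79 at ZT0, 8.61, 8.48, 8.55 and 8.42 at ZT4 and 8.57, 8.69, 8.50 and 8.52 at ZT8. At ZT12 it had 8.68, 8.54, 8.58 and 8.43, at ZT16 8.46, 8.52, 8.49 and 8.58 and at ZT20 8.57, 8.45, 8.75 and 8.40. A single mouse, ZT0 replicate 4, lay at 7.79, below all others, of which the lowest was at 8.40. The other 23 mice overlapped between all time points. The early difference was -0.13 ± 0.08 (SE), with a p of 0.11, and -0.05 without that mouse. The peak-to-trough difference of the fitted curve was 0.18 log2 units with it and 0.07 without it. *Rims1* ranged from 7.74 to 8.19 with an early difference of -0.07 ± 0.06 (SE).

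*Unc13a* (probe set 10579550) encodes Munc13-1, which primes vesicles by opening syntaxin. It had 8.46, 8.36, 8.46 and 8.08 at ZT0, 8.60, 8.55, 8.47 and 8.28 at ZT4 and 8.37, 8.52, 8.51 and 8.54 at ZT8. At ZT12 it had 8.40, 8.52, 8.47 and 8.27, at ZT16 8.43, 8.61, 8.39 and 8.26 and at ZT20 8.32, 8.34, 8.29 and 8.44. Its time points overlapped, with the lowest mouse at ZT0 and the highest at ZT16. The late difference was 0.09 ± 0.06 (SE), with a p of 0.153. The other 2 probe sets of the gene gave late differences of -0.12 and -0.03, so the late direction did not hold across its probe sets. In the early comparison all were lower in light, at -0.01 for the probe set used and -0.14 and -0.04 for the others. The one at -0.14 had an unadjusted p of 0.0277 in limma. For the probe set used, the early difference was 0.03 without ZT0 replicate 4. *Bsn* and *Pclo*, the giant scaffolds bassoon and piccolo, had late differences of 0.04 ± 0.05 and -0.03 ± 0.04 (SE), and *Pclo* had the second lowest spread between mice, an SD of 0.062.

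The genes of retrieval and uncoating had small fitted curves. *Dnm1* (dynamin, which cuts the neck of the forming vesicle), *Amph* (amphiphysin, which recruits it) and *Synj1* (synaptojanin, which helps to shed the clathrin coat) had late differences of 0.02 ± 0.06, 0.03 ± 0.06 and 0.03 ± 0.06 (SE). All 3 were higher in the late light, 2 of 3 without ZT20 replicate 4 and 1 of 3 under the further quantile normalization. Their fitted folds were 1.03 to 1.04, with upper limits of 1.17 to 1.18. The lowest of their rhythm p-values was 0.691.

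**Figure D3:**
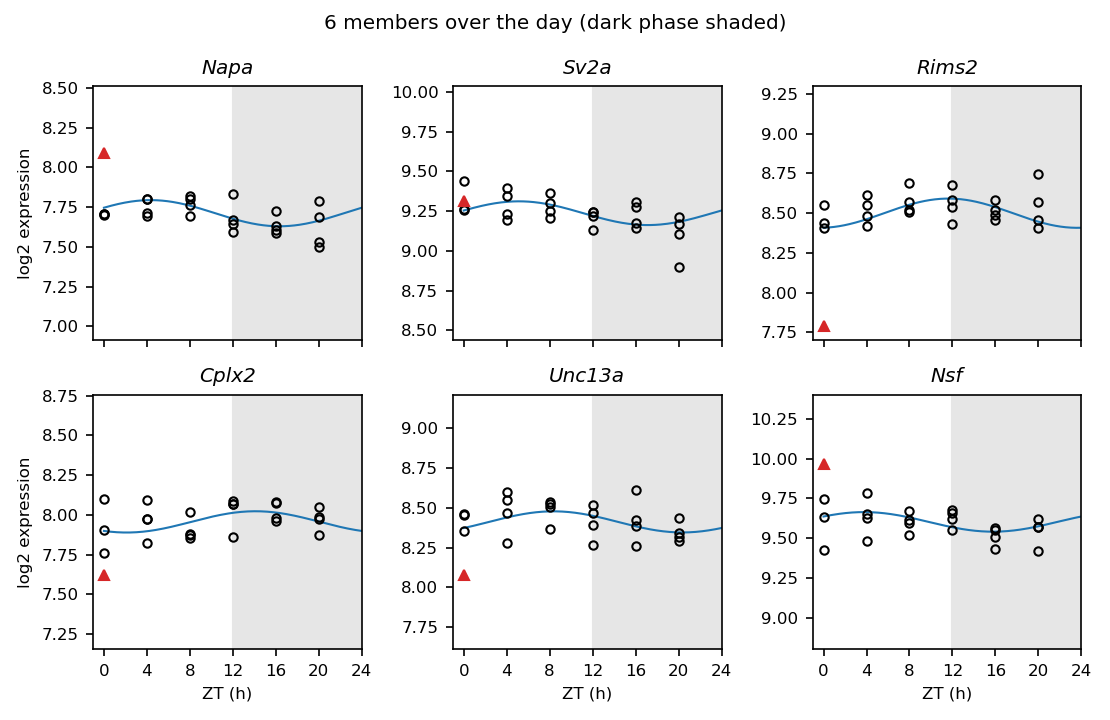
Log2 expression of 6 members in each mouse against ZT in hours, with the dark phase shaded, the fitted 24-h curve as a line and ZT0 replicate 4 as a red triangle. The vertical axes cover the same span of log2 expression. The triangle lies above all other mice in *Napa* and *Nsf* and below them in *Rims2*, *Cplx2* and *Unc13a*.

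ZT0 replicate 4 stood apart from the other arrays. Its median correlation with them across transcripts was 0.970, against 0.988 to 0.993 for the other 23. Of the 31 members, 9 lay more than 0.25 log2 units above the mean of the other 3 ZT0 mice in this mouse (22.6% of all transcripts) and 6 more than 0.25 below it (16.5%). In no other mouse did more than 6 members depart by that much from the other mice of its time point. Both directions occurred within roles. Of the 10 genes of the vesicle membrane and surface, 5 lay above and 5 below that mean, 4 and 1 of them by more than 0.25, and of the 3 disassembly genes 2 lay above it and 1 below. The largest departures upward were 0.52 in *Syn1*, 0.47 in *Sncb*, 0.46 in *Rab3a*, 0.40 in *Syn2*, 0.38 in *Napa* and 0.36 in *Nsf*. Those of other genes of the same roles were -0.26 in *Syp*, -0.17 in *Rab3c* and -0.21 in *Napb*. Of the 5 active zone genes, 3 lay more than 0.25 below the mean, with -0.68 in *Rims2*, -0.35 in *Unc13a* and -0.30 in *Rims1*, while *Bsn* departed by 0.20. The departure of *Cplx2* was -0.30. It was the highest of all 24 mice in 10 members and the lowest in 4, against 20.6% and 15.3% of all transcripts. In the same mouse the median deviation of the dopaminergic markers was -0.21 and that of the oligodendrocyte markers 0.15, while the general neuronal markers were at 0.02. Other mice came near these values, with -0.19 for the dopaminergic markers in ZT16 replicate 2. The oligodendrocyte markers were at 0.14 in ZT12 replicate 1. Single neuronal markers departed from the mean of the other ZT0 mice in both directions, from -0.32 in *Gap43* to 0.66 in *Uchl1*. The part of these marker lists in the departures of the members was not tested.

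**Figure D4:**
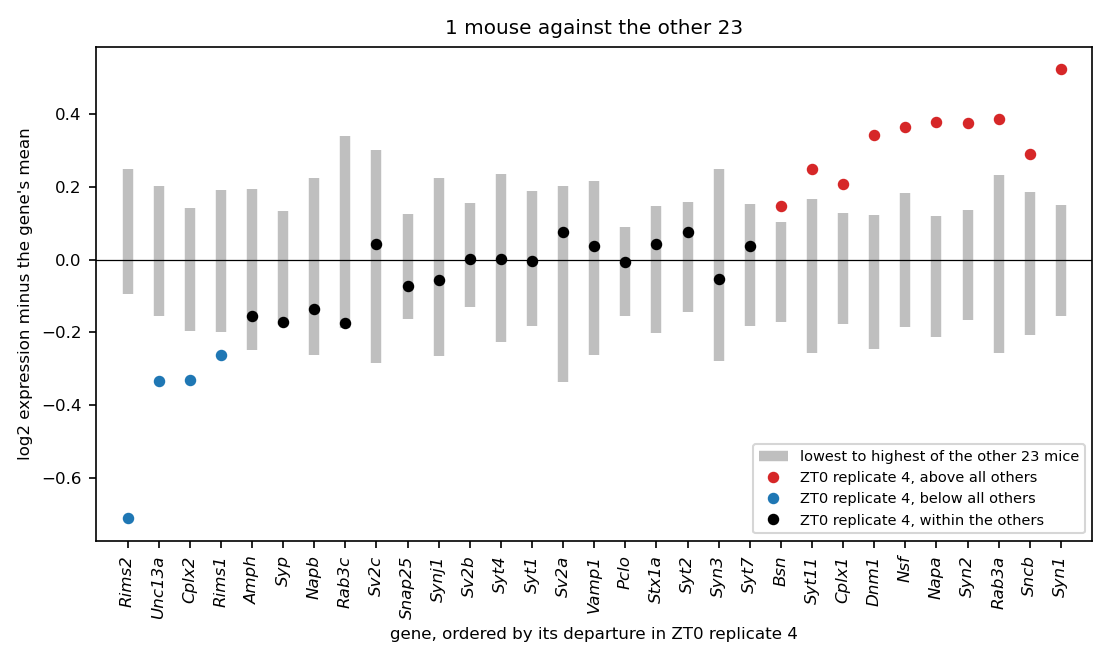
Log2 expression of the members in ZT0 replicate 4 (points) and the span from the lowest to the highest of the other 23 mice (grey bars), both as differences from the mean of the gene over 24 mice. Red points, 10 genes from *Bsn* to *Syn1*, lie above all other mice, and blue points, 4 genes, lie below them, with *Rims2* farthest.

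ZT20 replicate 4 was low in most members rather than in both directions. It was the lowest of all mice in 11 of 31 members, against 7.31% of all transcripts, and the median deviation of the members from their means was -0.14. Both *Sv2a* and *Snap25* had their lowest value there. The general neuronal and the astrocyte markers had median deviations of -0.17 in this mouse as well, and the oligodendrocyte markers one of -0.13. With both of these mice left out, a setting chosen after the data were seen, 21 of 31 members were higher in the late light, with a median of 0.02. *Napa* then had a late difference of 0.11 with an unadjusted p of 0.0347, *Sv2a* had 0.09 with 0.0723, and 0 members passed adjustment in limma.

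The wider vesicle cycle was examined in 80 further genes, of which 76 were measured. Their transcripts also gave 0 genes at an adjusted p under 0.05 in limma in any of the 4 tests. At an unadjusted p under 0.05 there were 5 of 76 genes in the rhythm test (6.58%, against 8.91% of all transcripts), 2 in the early comparison (2.63% against 10.2%), 10 in the late comparison (13.2% against 7.69%) and 2 in the test for any difference (2.63% against 5.1%). Of the 10 in the late comparison, 9 were higher in light, and *Slc32a1*, among these 10, is also in the list of GABAergic markers. The lowest rhythm p was that of *Syngr1*, synaptogyrin, a tetraspan vesicle protein, at 0.00498 (adjusted p 0.394 in limma), with a fold of 1.18, a peak at ZT7.4 and a late difference of 0.19 ± 0.06 (SE). In the late comparison *Syngr1* also had the lowest p of the 76 genes, followed by both clathrin light chains, coat proteins of endocytosis. *Cltb* had a late difference of 0.19 ± 0.06 (SE, unadjusted p 0.00451) and *Clta* one of 0.17 ± 0.06 (SE, unadjusted p 0.00585). All 3 kept a late unadjusted p under 0.05 in limma in each of the 24 fits without 1 mouse. *Cadps2*, a priming factor of dense-core vesicles, had an early difference of -0.17 ± 0.08 (SE, unadjusted p 0.0398), and its value in ZT0 replicate 4 departed by -0.61 from the mean of the other ZT0 mice. Without that mouse the early difference was -0.09, with an unadjusted p of 0.139 in limma, and the p was also above 0.05 without ZT4 replicates 1 or 4, ZT12 replicates 1 or 3, or ZT16 replicates 1, 2 or 3. *Syt17*, a synaptotagmin relative, had an early difference of -0.13 ± 0.06 (SE, unadjusted p 0.0457), and its p was above 0.05 in 11 of 24 fits without 1 mouse, reaching 0.124 without ZT0 replicate 1. *Ppfia3* (liprin-alpha 3, rhythm p 0.0367) and *Rab11b* (a GTPase of recycling endosomes, p 0.0371 for any difference) completed the counts of the rhythm test and of the test for any difference, and were named after their values were seen. Without a threshold, 54 of the 76 genes were higher in the late light, with a median difference of 0.03, and 44 in the early light, with a median of 0.02. Under the further quantile normalization these counts were 37 and 39, with medians of 0.00. At an unadjusted p under 0.05, 7 of the 76 then passed in the late comparison (9.21%, against 6.63% of all transcripts).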

How the data were processed

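RNA from VTA punches of 24 mice was hybridised to 1 Affymetrix whole-transcript array per mouse. Deposited values are log2 expression per probe set, 1 column per array, produced by RMA in R 2.13.1 per the submitters' processing notes. RMA subtracts background, equalises array distributions and summarises the probes of a set, which can shrink small differences. The study's methods give another sampling interval than the labels, and times follow the labels. Of 35556 probe sets, 23410 carry a gene name in the platform annotation, and 21698 of these matched the RefSeq gene table (GRCm38.p6).

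Here limma 3.58.1 in R 4.3.3 fitted a 24-h cosine and sine (moderated F-test) and, in a second fit of the 6 time points as groups, the early and late light-dark contrasts and any difference. P-values were adjusted by Benjamini-Hochberg over 23410 transcripts, with a threshold of 0.05. The labels do not say whether mice were handled in batches. The number of arrays limits the precision. Full values are given for members with an unadjusted p under 0.05 in any test, filled to 6 by the smallest rhythm p. Of 80 other vesicle genes and the cell type markers, those with a single-gene probe set were used. Members, lists and tests were chosen with earlier results of these data known. Fits were tested on simulated data. Alternatives were a replicate block, normalization, filters, variance models, array weights, a 12-h term, whole light against whole dark, and leaving out mice or time points. Plots were drawn with matplotlib 3.10.9.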

Additional observations from a re-analysis of the deposited data

Results flagged for a closer look

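Within each time point, 5 of 186 groups of 4 mice (31 members at 6 time points) held a mouse far from the other 3 by Dixon's test, where chance flags about 1 in 20 groups, or 9.3 of 186. ZT0 replicate 4 accounted for 2 of them, with *Napa* at 8.09 log2 expression, where the other 3 mice had 7.70 to 7.71, and *Sncb* at 9.18, where they had 8.68 to 8.75. At ZT8, *Cplx1* was at 10.1 in replicate 2, where the others had 9.97 to 9.99, and *Cplx2* at 8.02 in replicate 3, where they had 7.85 to 7.88. At ZT12, *Cplx2* was at 7.86 in replicate 4, where the others had 8.07 to 8.08.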

How the results depend on the processing

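No member passed an adjusted p under 0.05 in limma in any of the 4 tests under any alternative run. The counts that follow are at an unadjusted p under 0.05, with the share of all transcripts in parentheses, and 1, 2 and 3 members are 3.23%, 6.45% and 9.68% of 31. Under a further quantile normalization between arrays, 3 members (*Napa*, *Rims2* and *Cplx2*) passed in the early comparison (10%), 0 in the late comparison (6.63%) and 1 (*Rims2*) in the test for any difference (5.15%), 12 members were higher in the early light and 13 in the late light, *Rims2* had a late difference of -0.030, and 1 other vesicle gene passed in the early comparison. With array medians centred, 1 member passed in the rhythm test (8.96%) and 1 in the early comparison (10.3%), with 1 other vesicle gene. Without a threshold, 22 members were then higher in the early light and 26 in the late light. Whole light against whole dark gave 2 members and 5 other vesicle genes (11.3%). An unmoderated test gave 1 member for any difference (5.38%), and array weights gave 1 member in the rhythm test (8.89%) and 5 other vesicle genes for any difference (13%), where all probe sets gave 1 (6%). A 12-h term gave 3 other vesicle genes in the rhythm test (5.74%). Without all mice of ZT0, ZT16 or ZT20, 1 member passed in the rhythm test (7.16% to 8.4%), and without those of ZT0, ZT12 or ZT20, 9, 3 and 1 other vesicle genes did (6.84% to 8.4%). With ZT0 replicate 4 and ZT20 replicate 4 left out, 1 member passed in the late comparison (7.7%). The causes were not tested.

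With each mouse left out in turn, 0 to 2 members passed an unadjusted p under 0.05 in the rhythm test (7.38% to 9.93% of all transcripts), 0 to 3 in the early comparison (8.04% to 12.8%), 0 to 2 in the late comparison (5.85% to 9.82%) and 0 to 2 for any difference (4.38% to 7.9%). Other vesicle genes numbered 3 to 7, 0 to 4, 5 to 11 and 0 to 4 in the same order. The late difference of *Napa* was 0.11 to 0.16 and passed in 15 of 24 fits, that of *Sv2a* was 0.09 to 0.15 and passed in 21 of 24, that of *Rims2* was -0.0078 to 0.049, and the early difference of *Unc13a* was -0.038 to 0.033. The other probe sets of *Unc13a* gave late differences of -0.12 and -0.029. The labels do not say whether mice with the same replicate number belong together. Over 60 pairs of mice with the same number at different time points, the correlation of residuals was -0.30 to 0.58, with a median of 0.03. For different numbers the median was -7.1e-05. Of the same-number pairs, 23.3% were over 0.1, a share not counted for different numbers. A batch shared by mice of the same number was not tested. In fits with a replicate block, 0, 0, 2 and 0 members passed an unadjusted p in the rhythm, early, late and any-difference tests, as without it.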
